A study of Malus domestica with 8 samples.

Results

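The knock-out line mdagg-2 of the apple cultivar 'Gala' was compared with non-transformed 'Gala' (wt), with 2 leaf libraries on each side, 4 of the 8 libraries of the series. Membership rested on the library titles alone, and every annotated transcript of the files (a feature) was followed. MdAGG, the apple agglutinin, was the CRISPR/Cas9 target in mdagg-2 and also in the lines mdagg-3 and mdagg-4, which supply the other 4 libraries. Greenhouse-grown plants (8 weeks, 22 °C, relative humidity 80%) had been rooted in vitro. All 4 groups, wt included, received a spray of ASM (acibenzolar-S-methyl, 0.2 g/l) 3 days before sampling, so the response to ASM itself was not measured. Each library came from a bulk of leaves, and the 2 libraries of a group came from independent experiments. A line is a single transformed genotype, and no group was transformed without being edited, so the effects of the edit and of transformation and regeneration cannot be told apart.

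Agglutinins are lectins, proteins that bind sugars and can clump cells that carry them, and in plants many of them take part in defence. ASM is a synthetic inducer that acts in place of salicylic acid, the hormone that switches on systemic acquired resistance. CRISPR/Cas9 cuts DNA at a chosen site, and imperfect repair can shift the reading frame. An edited gene may still be transcribed, so the level of its RNA does not by itself show whether the protein was lost.

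The files hold 52311 features, of which 32373 passed a filter on low counts and were tested. The files do not pair identifiers with gene names, and the reference table of names held 0 of them. Features are therefore described by identifier, transcript length and level, and no function is given to any of them. Whether a feature belongs to MdAGG was not tested, and the leaf label was not checked against marker genes. In these identifiers the digits after MD, called the field here, stand for the chromosome (field 00 holds features not placed on one), and the digits after G follow the order along it. Total estimated reads were 34553413 and 36995911 in wt and 31807423 and 28591909 in mdagg-2. Levels are given as normalised read counts, in CPM, reads scaled to a common library size with TMM factors. A count of 0 allows up to 3 reads, or 0.103 CPM in mdagg-2 replicate 1 and 0.101 CPM in replicate 2, for counting error only. In leaf bulks, fewer cells of a type and less RNA per cell cannot be told apart.

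The 2 mdagg-2 libraries lay far apart. On log2 (CPM + 0.5), 3364 features (10.4% of those tested) differed at least 2-fold between them, 1411 higher in replicate 1 and 1953 higher in replicate 2. The same count was 959 in wt (2.96%), 1033 in mdagg-3 (3.19%) and 1898 in mdagg-4 (5.86%). Among the 15915 features with a mean of at least 10 CPM, 85 were at least 4-fold higher in replicate 1 of mdagg-2 and 309 in replicate 2, against 9 and 2 in the wt pair. On the first principal component, which held 46.3% of the variance, the scores were -100 and 41.9 for mdagg-2, against -1.44 and 35 for wt. They were -43.3 and -40.5 for mdagg-3 and 15.5 and 93.1 for mdagg-4, so the mdagg-4 libraries also lay apart on it.

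**Figure D1:**
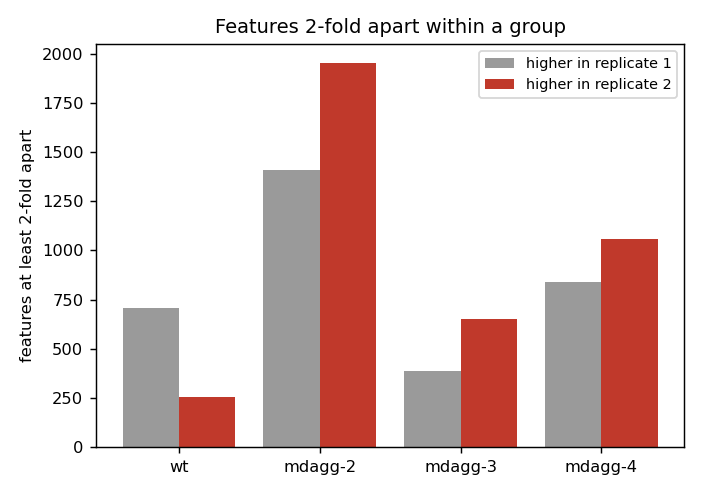
Number of features at least 2-fold apart between the 2 libraries of each group (vertical axis, counts of features; grey bars, higher in replicate 1; red bars, higher in replicate 2). The mdagg-2 bars reach 1411 and 1953, and the wt bars 706 and 253.

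Replicate 1 carried most of the distance from wt. In it, 461 features (1.42%) were at least 2-fold above both wt libraries and 1217 (3.76%) at least 2-fold below both. In replicate 2 these numbers were 130 (0.402%) and 105 (0.324%). The 1217 features low in replicate 1 had a median of 8.81 CPM in wt, 1.9 CPM in replicate 1 and 9.41 CPM in replicate 2, so in replicate 2 their median was not below that of wt. Another 9 features were 2-fold above both wt libraries in replicate 1 and 2-fold below them in replicate 2, and 6 did the opposite. The libraries also differed by transcript length. Over 17665 features with a mean log2 CPM above 3, replicate 2 minus the wt mean had a median of -0.162 for transcripts of 148 to 1450 bases and 0.142 for those of 2221 bases and over. In replicate 1 the medians were 0.0232 and 0.0179, and in wt replicate 2 minus wt replicate 1 they were -0.016 and 0.0509. The part of length in the differences from wt was not tested.

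In the test of mdagg-2 against wt with edgeR's quasi-likelihood F test, 1 feature was higher (0.00309% of 32373) and 0 were lower (0%) at a Benjamini-Hochberg adjusted p under 0.05. There were 1181 features (3.65%) at an unadjusted p under 0.05. DESeq2 on the same 8 libraries called 28 higher (0.0705% of 39707) and 9 lower (0.0227%), and DESeq2 on the 4 libraries of mdagg-2 and wt called 12 higher (0.0349% of 34393) and 8 lower (0.0233%). The median standard error of a log2 difference was 0.309.

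Because the mdagg-2 libraries were so unlike, the features were next listed that differed in both of them. In this list each mdagg-2 library lay at least 2-fold from each wt library on log2 (CPM + 0.5), on the same side. It held 36 higher features (0.111%) and 24 lower ones (0.0741%), together 60. These were 7.81% of the features 2-fold above wt in replicate 1 and 27.7% of those in replicate 2, and 1.97% and 22.9% of those 2-fold below. Without the fold, 4965 features (15.3%) had both mdagg-2 libraries above both wt libraries, and 4773 (14.7%) had both below. The least separated members stood 2.001-fold (higher) and 2.003-fold (lower) from the nearest wt library, and the closest non-members stood 1.992-fold and 1.983-fold from it. The rule used the wt libraries as well as those of mdagg-2. Leaving out a library removed a condition, so the list could then only grow. Without wt replicate 1 it held 320 features, without wt replicate 2 it held 163, without mdagg-2 replicate 1 it held 235 and without mdagg-2 replicate 2 it held 1678.

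**Figure D2:**
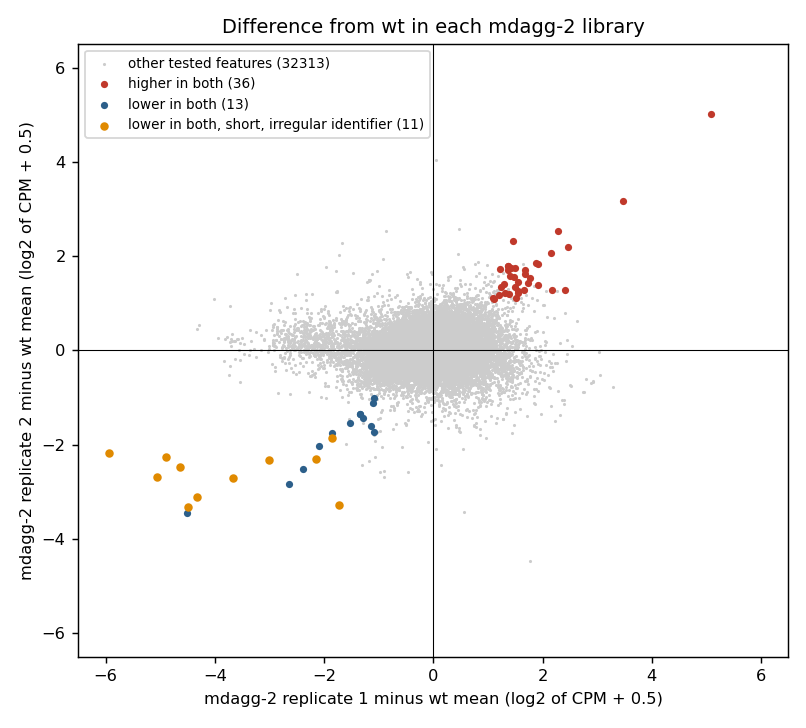
Difference of each mdagg-2 library from the wt mean on log2 (CPM + 0.5), replicate 1 on the horizontal and replicate 2 on the vertical axis, with 1 point per tested feature. The 36 higher features (red) and the 24 lower ones (blue and orange; the 11 orange ones are short features with an irregular identifier) lie in the corners where both libraries share a sign. Several orange points lie well off the diagonal, since 8 of the 24 lower members were at least 2-fold apart between the mdagg-2 libraries.

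Most members were weakly expressed. The higher ones had a median of 0.941 CPM in wt and 3.95 CPM in mdagg-2, and the lower ones 4.89 and 0.459 CPM, where all tested features had medians of 9.62 and 9.45 CPM. By mean level over the 8 libraries, 33 of the 36 higher and 22 of the 24 lower features were under 10 CPM, as were 16458 of the 32373 features tested. The higher members had a median transcript length of 1178 bases and the lower ones 510.5 bases, against 1515 bases over all tested features. The medians of the fitted log2 differences were 2.19 and -3.75, against 0.0142 over all tested features, and they follow from the way members were chosen. With the 1 higher and 3 lower members that had 0 reads on one side set to their bound (3 reads per library), the medians were 2.19 and -3.4. Within the list the mdagg-2 libraries differed from each other by a median of 0.245 on the log2 scale in the higher members. The median was 0.317 in the lower members and 0.332 over all tested features. The list rule used both libraries, so these spreads and the shares that follow are not independent of it. At least 2-fold apart were 1 of the 36 higher members (2.78%) and 8 of the 24 lower ones (33.3%), 7 of the 8 in the set of short transcripts described later, against 10.4% of all tested features.

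The feature that passed edgeR's test was MD17G1123100, with a transcript of 1929 bases. It held 5 and 3 reads in wt against 588 and 565 in mdagg-2, while mdagg-3 held 3 and 3, and mdagg-4 4 and 5. Both mdagg-2 libraries stood far above the other 6, which overlapped each other. Its level was 19.7 ± 0.813 CPM in mdagg-2 and 0.112 ± 0.0481 CPM in wt (SD, n = 2 each). The fitted difference from wt was 7.43 ± 0.357 on the log2 scale (SE, edgeR adjusted p = 0.00163). Between like-numbered libraries, on log2 (CPM + 0.5), the differences were 5.01 and 5.09. On the per-length scale it reached 11.5 and 12.9 TPM in the mdagg-2 libraries, above 65% and 63.4% of the tested features. Of the 2 identifiers on each side of it, 1 was tested and did not share the rise. That neighbour differed from wt by 0.369 ± 0.275 on the log2 scale (SE, edgeR adjusted p = 0.998). The identifier just before MD17G1123100 held 1 read in each mdagg-2 library and 0 in the other 6. The 2 after it held 0 reads in every library. These 3 were too low to show whether they shared the rise. The call was lost without wt replicate 2 (log2 difference 7.04, edgeR adjusted p = 0.057) and in an edgeR fit of the 4 libraries of mdagg-2 and wt (7.43, adjusted p = 0.143). Over 13 alternatives its adjusted p ranged from 4.21e-29 to 0.143.

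**Figure D3:**
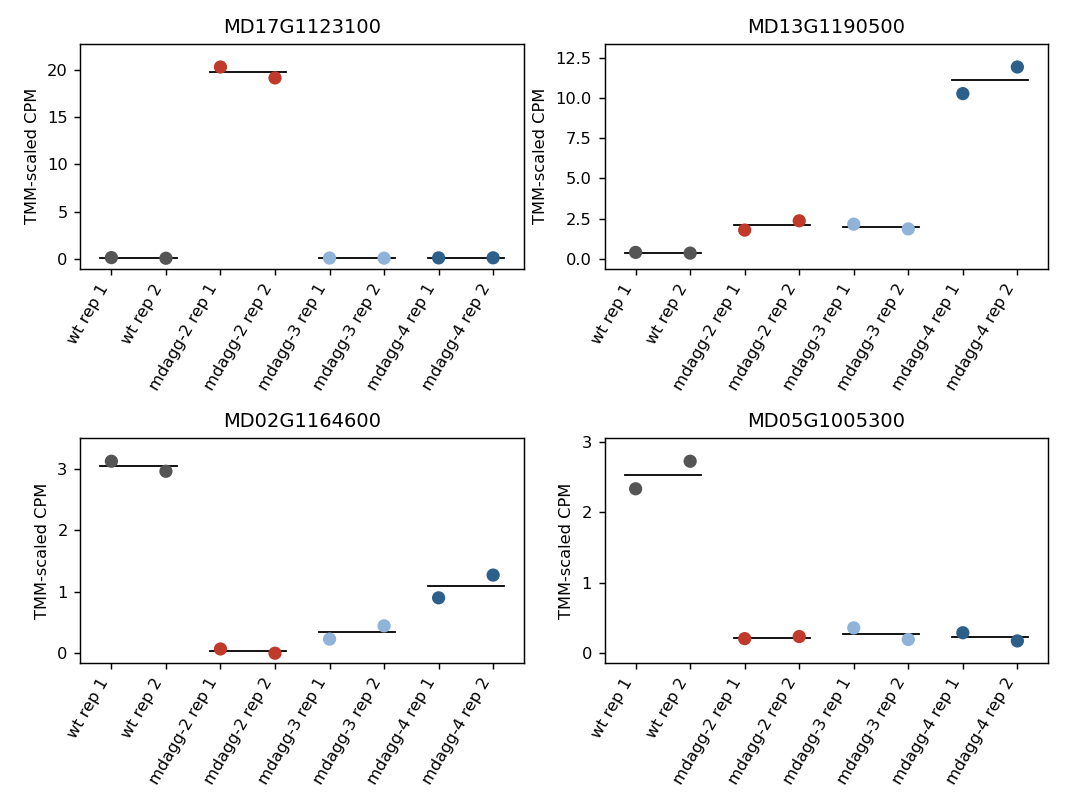
CPM after TMM scaling in each of the 8 libraries for MD17G1123100, MD13G1190500, MD02G1164600 and MD05G1005300 (points, single libraries; lines, group means of 2). MD17G1123100 is near 20 CPM in both mdagg-2 libraries and under 0.15 CPM in the other 6.

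The second higher feature by p was MD13G1190500, with a transcript of 766 bases. Its reads were 14 and 14 in wt, 52 and 70 in mdagg-2, while mdagg-3 held 66 and 67, and mdagg-4 353 and 478. The mdagg-2 libraries lay above wt, beside those of mdagg-3 and well below those of mdagg-4. The log2 difference from wt was 2.42 ± 0.303 (SE, edgeR adjusted p = 0.474). DESeq2 gave an adjusted p of 0.000307 on 8 libraries and of 0.165 on the 4 libraries of mdagg-2 and wt. Both preceding features in identifier order also read higher in mdagg-2. The nearer one, of 771 bases, held 0 and 4 reads in wt, 8 and 10 in mdagg-2 and 0 in both mdagg-3 libraries. The farther one, of 1314 bases and itself among the 36, held 5 and 5 reads in wt, 45 and 47 in mdagg-2, while mdagg-3 held 0 and 0, and mdagg-4 27 and 74. Its log2 difference from wt was 3.48 ± 0.602 (SE, edgeR adjusted p = 0.998). In mdagg-3 the 3 neighbours parted, since MD13G1190500 read above wt there and the others held no reads. Whether the authors' counting divided reads between these neighbours was not tested, and their single levels are to be read with that limit.

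The other 34 higher features had log2 differences of 1.1 to 8.2 and edgeR adjusted p values of 0.474 to 0.998. The 8.2 belongs to a feature with 0 reads in wt, for which the data give at least 13-fold. In 9 of the 36, MD17G1123100 among them, both mdagg-2 libraries lay above all 6 other libraries, and in 2 they did so by at least 2-fold. Over all tested features the first held for 1034 (3.19%) and the second for 2 (0.00618%), and the list rule had already used the wt side of both. The other of these 2, in field 16 with a transcript of 617 bases, read 14.8 and 11.9 CPM in mdagg-2, 1.4 and 0.493 CPM in wt, while mdagg-3 held 1.7 and 3.14 CPM, and mdagg-4 5.38 and 4.71 CPM. Its log2 difference from wt was 3.82 ± 0.52 (SE, edgeR adjusted p = 0.543, DESeq2 adjusted p = 4.19e-10). A feature of field 11, with 802 bases, read 21 and 23.5 CPM in mdagg-2, 7.06 and 8.15 CPM in wt, while mdagg-3 held 6.48 and 9.65 CPM, and mdagg-4 10.8 and 14.6 CPM. The wt and mdagg-3 libraries overlapped there, and mdagg-4 lay between them and mdagg-2.

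The most abundant of the 36, in field 14 with a transcript of 4392 bases, was the single member over 100 CPM. It read 767.8 and 768.2 CPM in wt and 1634 and 1662 CPM in mdagg-2. In mdagg-3 it read 1031 and 1607 CPM, and in mdagg-4 1799 and 957.3 CPM, a wider spread between replicates than in mdagg-2. Its log2 difference from wt was 1.10 ± 0.399 (SE, edgeR adjusted p = 0.998). Field 14 held 6 of the 36 higher features (16.7%) and 4.76% of the features tested. The median difference from the wt mean over field 14 was 0.129 in mdagg-2 replicate 1 and 0.119 in replicate 2 on the log2 scale. Over the 17 other fields the medians lay between -0.00946 and 0.0429 in replicate 1 and between -0.0649 and 0.00144 in replicate 2, so field 14 stood above them in both libraries.

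Among the lower features, 11 of the 24 belonged to a set of short transcripts with irregular identifiers. Of the 52311 identifiers, 45 do not end in 00 as the rest do, and 16 of these have transcripts of 495 to 504 bases in fields 05 (2 features), 06 (1) and 10 (13). This set was drawn up after the values had been seen, so it is described without a test. Summed over the 16 features, the level was 166.5 and 92.35 CPM in wt and 2.38 and 16.9 CPM in mdagg-2. The lower wt sum was 5.46 times the higher mdagg-2 sum, and the wt and mdagg-2 libraries did not overlap. The mdagg-2 libraries also differed from each other by 7.12 times, and the wt libraries by 1.8 times. In the other lines the sums were 37.5 and 274.7 CPM (mdagg-3) and 6.07 and 1.42 CPM (mdagg-4). The mdagg-4 libraries were as low as those of mdagg-2, while one mdagg-3 library lay below wt and the other above it. On the per-length scale the sums were 583.1 and 347 TPM in wt and 7.54 and 65.2 TPM in mdagg-2.

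**Figure D4:**
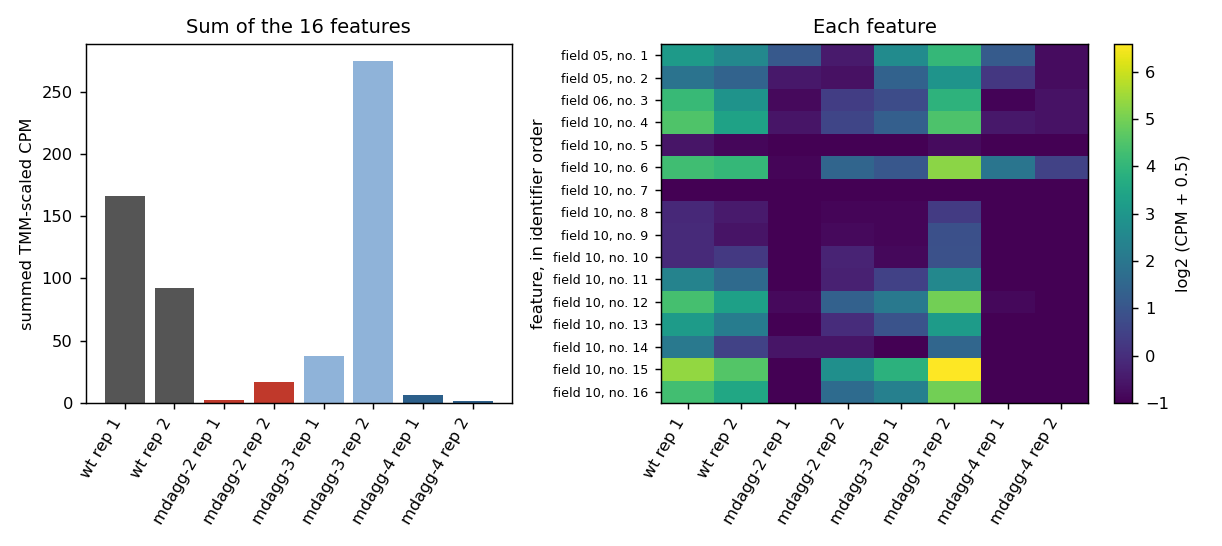
Left, summed CPM of the 16 short features with irregular identifiers in each library (bars, single libraries). Right, log2 (CPM + 0.5) of each feature by library, in identifier order: both wt columns and mdagg-3 replicate 2 are bright in most rows, while mdagg-2 replicate 1 and both mdagg-4 columns are dark, and mdagg-2 replicate 2 is in between.

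Of the 16 short features, 14 passed the filter on low counts, and 15 had both mdagg-2 libraries below both wt libraries, the last being at 0 reads throughout. Over all tested features both lay below in 4773 (14.7%). The list rule had required this of the 11 short features in the list, and the set was drawn up after its values were seen. The 15 also include a feature that was not tested, so the shares cannot be compared. The most abundant of them in wt, in field 10, read 40.1 and 22.9 CPM in wt, 0 and 6.36 CPM in mdagg-2, 14.2 and 95.7 CPM in mdagg-3 and 0 in both mdagg-4 libraries. The member of field 06 read 16.7 and 7.01 CPM in wt, 0.0689 and 0.812 CPM in mdagg-2, while mdagg-3 held 1.21 and 14.5 CPM, and mdagg-4 0.0291 and 0.149 CPM. The first of field 05 read 8.29 and 5.35 CPM in wt and 1.65 and 0.237 CPM in mdagg-2, so there replicate 1 was the higher of the mdagg-2 libraries, unlike in the sum. In mdagg-2 replicate 1, 9 of the 16 features had 0 reads, against 2 in mdagg-2 replicate 2 and 1 in each wt library. The log2 differences from wt ran from -4.73 to -1.73 over the 14 tested, with a median of -3.84, where all tested features had 0.0142. The smallest edgeR adjusted p was 0.998. DESeq2 called 4 of them on the 4 libraries and 1 on the 8 libraries. Over all features it called 8 lower on the 4 libraries (0.0233%) and 9 lower on the 8 libraries (0.0227%).

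Single levels within this set are uncertain. Their estimated counts were not whole in 67.9% of values over the 14 tested, against 50% over all tested features, as arises when Salmon divides reads between transcripts. The member of field 06 had whole values throughout. No sequences were compared. The 90 other tested features of 495 to 504 bases had a median log2 difference of 0.151. The 13 other tested features with irregular identifiers had a median of -0.148, and 0 of them were in the list of 60. The short set was drawn up after the values had been seen, so these figures are not independent of that choice.

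The 13 remaining lower features were spread over fields 00, 02, 05, 07, 10, 15, 16 and 17. The lowest p among all lower features was that of MD02G1164600, with a transcript of 630 bases. It held 107 and 114 reads in wt, 2 and 0 in mdagg-2, while mdagg-3 held 7 and 16, and mdagg-4 31 and 51. Both mdagg-2 libraries lay below all 6 others, the single lower member of which this was so (960 of all tested features, 2.97%), and the 4 groups did not overlap. From the summed reads the ratio of mdagg-2 to wt was 0.0112 (95% exact interval 0.00135 to 0.0411, counting error only). The fit put it at -6.33 ± 0.768 on the log2 scale (SE, edgeR adjusted p = 0.474), whereas DESeq2 on 8 libraries gave an adjusted p of 0.00012. It was 3.04 ± 0.116 CPM in wt (SD, n = 2). The 2 tested neighbours on each side differed from wt by -0.242 to 0.164 on the log2 scale.

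MD05G1005300, with a transcript of 837 bases, held 80 and 105 reads in wt, 6 and 7 in mdagg-2, while mdagg-3 held 11 and 7, and mdagg-4 10 and 7. All 6 knock-out libraries were low and overlapped each other. Its log2 difference from wt was -3.49 ± 0.486 in mdagg-2 (SE, edgeR adjusted p = 0.543), and its log2 difference from the mean of the other lines was -0.178 ± 0.466 (SE, edgeR adjusted p = 1). A longer feature of field 07, with 2415 bases, read 22.8 and 12.6 CPM in wt, 2.83 and 2.54 CPM in mdagg-2, while mdagg-3 held 11.7 and 12.4 CPM, and mdagg-4 0.843 and 0.274 CPM. Its mdagg-3 libraries lay just below the lower wt library and well below the higher one, and those of mdagg-4 lay below those of mdagg-2. A feature of field 16, with 794 bases, read 13.3 and 8.85 CPM in wt, 0 and 0.541 CPM in mdagg-2, 0.327 and 0.25 CPM in mdagg-3 and 0 in both mdagg-4 libraries, so that all knock-out libraries were near 0. The last 2 had log2 differences from wt of -2.72 ± 0.464 and -5.33 ± 0.979 (SE, edgeR adjusted p = 0.803 and 0.998).

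**Figure D5:**
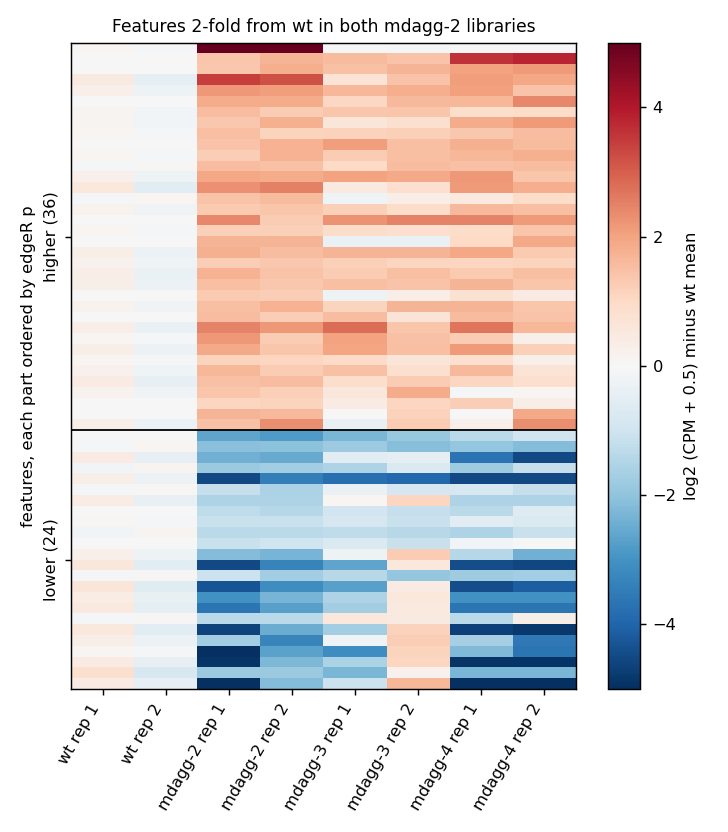
Level of the 60 list members in each library on log2 (CPM + 0.5), relative to the wt mean (colour; red above, blue below; limited to 5 either way). The 36 higher features stand above and the 24 lower ones below the black line. The list was chosen on the mdagg-2 and the wt columns. The mdagg-3 and mdagg-4 columns played no part in the rule, but they too are shown relative to the wt mean.

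Setting mdagg-2 against the mean of mdagg-3 and mdagg-4 asks which features set this line apart from the other knock-out lines, with no wt library in the contrast. By edgeR this contrast called 1 higher feature (0.00309%) and 0 lower (0%), and 751 (2.32%) had an unadjusted p under 0.05. DESeq2 called 3, of which MD17G1123100 and the 617-base feature of field 16 are in the list. The called feature was again MD17G1123100, at 7.51 ± 0.266 on the log2 scale (SE, edgeR adjusted p = 0.000162), and its call held in all 13 alternatives. For the other members of the list no difference from the other lines passed edgeR's test. The wt libraries are shared by the comparisons of the 3 lines, so the levels of the 60 features are given here side by side and not as an overlap. The median level of the 36 higher features was 1.11 and 0.675 CPM in wt, 4.02 and 3.74 CPM in mdagg-2, while mdagg-3 held 3.01 and 3.03 CPM, and mdagg-4 4.2 and 3.72 CPM. For the 13 lower features outside the short set it was 3.01 and 2.96 CPM in wt, 0.207 and 0.507 CPM in mdagg-2, while mdagg-3 held 0.916 and 0.473 CPM, and mdagg-4 0.581 and 0.598 CPM.

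Some features had reads on one side and 0 on the other. Over all 52311 features, 7 had 0 reads in both mdagg-2 libraries and at least 10 in both wt libraries, and 2 showed the reverse. Of the 7, one in field 00 with 3810 bases held 47 and 24 reads in wt, 0 in both mdagg-2 and both mdagg-4 libraries, and 32 and 93 in mdagg-3, so that it was at least 9.74-fold lower in mdagg-2 than in wt. One in field 04 with 1197 bases held 27 and 17 reads in wt and 0 in mdagg-2, while mdagg-3 held 90 and 15 and mdagg-4 held 35 and 21. Of the 2 gained, the longer one, in field 07 with 1875 bases, held 32 and 31 reads in mdagg-2, while mdagg-3 held 0 and 22, and mdagg-4 0 and 54. It had 0 reads in both wt libraries, at least 13-fold below mdagg-2, and also 0 reads in replicate 1 of mdagg-3 and of mdagg-4.

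The authors' deposited table for mdagg-2 against wt, made with DESeq2, lists 12 higher features (0.0365% of 32879 with an adjusted p) and 9 lower ones (0.0274%). All 21 are in the list of 60, which was drawn from the same 4 libraries, and 4 of the 9 lower ones belong to the short set. Over these 21 features the log2 fold changes in the authors' deposited table ran from -7.31 to 7.72. Both extremes belong to features with 0 reads on one side. For these the data give at least 9.74-fold lower and at least 13-fold higher in mdagg-2. For MD17G1123100 the authors' deposited table gives a log2 fold change of 7.47 with an adjusted p of 1.03e-28.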

How the data were processed

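Leaf messenger RNA of 8 libraries was sequenced after a stranded Illumina library preparation, per the labels' protocols. The submitters' processing notes name Salmon and DESeq2. The versions, the genome and its annotation were not given in the sources used here. Library files as deposited give, per the file headers, estimated counts (not normalized, 67.9% of values exactly whole) and TPM scaled by the authors' Salmon run. The authors' deposited table gives whole-number counts, log2 fold changes and p-values for each line. Its 8 count columns equalled the rounded estimated counts, and 4 repeated wt columns were not used.

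Estimated counts were rounded, filtered with filterByExpr and scaled with TMM factors. The quasi-likelihood F test of edgeR 4.0.16, run in R 4.3.3, compared the groups. The model held the 8 libraries and 1 coefficient for each group, which left 4 residual degrees of freedom. P-values were adjusted by Benjamini-Hochberg over 32373 features, with a threshold of 0.05. A standard error is the log2 difference divided by the square root of F. Fold rules used CPM + 0.5. The fit was also run on simulated counts that gave each feature the same spread in all 4 groups. The mdagg-2 pair lay wider apart than that of wt, so the simulation does not show how the fit behaves with such a pair. Alternatives were DESeq2 1.42.0, other size factors, no filter, fewer libraries, a replicate block, each library left out, other folds and other added constants.

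The comparison, list rule and tests were chosen with earlier results of these data known. Named features were the 2 higher and 2 lower members of the list with the smallest p. Other features singled out, and the set of short transcripts, were chosen after their values were seen. Lists of marker and defence genes had 0 matched identifiers and were not tested. Depth was 28591909 to 36995911 reads per library. The labels give 2 independent experiments, so p-values rest on 2 libraries a group.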

Additional observations from a re-analysis of the deposited data

Results flagged for a closer look

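MD17G1123100 differed between mdagg-2 and the other knock-out lines in edgeR's test of that difference. It lay above the mean of mdagg-3 and mdagg-4 by 7.51 ± 0.266 on the log2 scale (SE, edgeR adjusted p = 0.000162), with 588 and 565 reads in mdagg-2 and 3 to 5 reads in each of the other 6 libraries. It was higher in 2 of 2 mdagg-2 libraries than in every other library.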

How the results depend on the processing

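The 1 call against wt became 37 with DESeq2 (28 higher, 9 lower). It became 0 in an edgeR fit of mdagg-2 and wt alone, with 824 features at an unadjusted p under 0.05, and over the 8 fits without 1 library it ranged from 0 (without wt replicate 2) to 1. In the fits without a library of a group, the lone library left is assumed to vary like the other groups. The count was 1 with other size factors, without the low-count filter and with the replicate block. The 1 call against the other lines became 3 with DESeq2 and was 1 in the other alternatives, each left-out library included. The 4 named features had 1 direction each in all their 13 alternatives. MD13G1190500, MD02G1164600 and MD05G1005300 passed the threshold in 1 of these, DESeq2 on 8 libraries. On the 4 libraries of mdagg-2 and wt, DESeq2 gave adjusted p values of 0.165, 0.000153 and 0.000905, in the same order. The list of 60 became 283 at 1.5-fold, 8 at 4-fold, 168 with CPM + 0.1 and 21 with CPM + 2. Without 1 library it ranged from 163 to 1678, where by its rule it could only grow. The 3364 features apart within mdagg-2 became 8684 at 1.5-fold, 742 at 4-fold, 4988 with CPM + 0.1 and 1982 with CPM + 2. With the replicate block 1 feature was called against wt. The labels do not say that a number marks an experiment, and with 2 pairs the pairing cannot be settled: replicate 2 minus replicate 1 correlated at 0.308 across features between wt and mdagg-2, and between -0.376 and 0.587 over the 6 pairs of groups. With 2 libraries a group the median standard error of a log2 difference was 0.309, which limits what edgeR's test can call.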
